A study of Mus musculus with 2 samples.

Results

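The apolipoprotein genes described here were *Apoa1*, *Apoa2*, *Apoa4*, *Apoa5*, *Apob*, *Apoc1*, *Apoc2*, *Apoc3*, *Apoc4* and *Apoe*, which were 10 of the 37074 gene names on a mouse expression array. The genes were picked with earlier results of these data known, and their probes by name, as every transcript probe that carried one of these symbols in the scanner output, 17 of the 56605 probes. Gene expression was measured in cultured primary hepatocytes of C57BL/6 mice with 1 array for each of 2 genotypes, to compare liver cells with and without the mitochondrial fission protein Drp1. *Drp1*LiKO cells came from *Alb-Cre* Tg/+ *Drp1* flox/flox mice and control cells from *Drp1* flox/flox littermates without Cre, which the labels call wild type, so both genotypes carried the floxed allele. *Alb-Cre* is active in cells that express albumin, so that other liver cells carried along in a culture keep the gene. The cells stood on collagen for 24 h before RNA was taken, and the sources used here give an age only for purchased mice, and no number of mice behind each culture. With 1 array per genotype no test was possible, and every difference below describes these 2 arrays only.

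Apolipoproteins are the proteins on the surface of lipoproteins, the particles that carry cholesterol and triglyceride in blood, and the liver is the main source of most of them. ApoB is the large structural protein of very low density lipoprotein (VLDL), apoA-I and apoA-II are those of high density lipoprotein (HDL), and the small exchangeable apolipoproteins move between particles and steer them. ApoC-II activates lipoprotein lipase, apoC-III slows the removal of triglyceride-rich particles, apoA-V speeds it, and apoE is the ligand by which receptors take up remnants. Several of the genes stand side by side in the genome, *Apoa1*, *Apoc3*, *Apoa4* and *Apoa5* on chromosome 9 and *Apoe*, *Apoc1*, *Apoc4* and *Apoc2* on chromosome 7.

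The probes are 60-mers and each reads only a short stretch of 1 transcript, so the sequences behind the values with the clearest differences, and those of *Apoa1* and *Apoe* as neighbors in the same clusters, are given first. They are in the sense of the transcript, 5′ to 3′, as the array files list them. The *Apoa4* probe maps to chr9:46051206-46051266 (mm9, plus strand), the *Apoa1* probe to chr9:46037921-46037980 (plus strand), the *Apoc2* probe shown to chr7:20258597-20258656, the *Apoc4* probe to chr7:20263609-20263965 and the brighter *Apoe* probe to chr7:20281732-20281791, the last 3 on the minus strand. The *Apoc4* probe is spread over 357 genomic bases, and its sequence therefore lies on either side of a gap in the genome. The listed coordinates cover 61 bases for the *Apoa4* probe and 50 for the dimmer *Apoe* probe, so neither equals the probe length of 60.
*Apoa4* probe: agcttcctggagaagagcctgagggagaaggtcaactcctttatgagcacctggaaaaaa
*Apoa1* probe: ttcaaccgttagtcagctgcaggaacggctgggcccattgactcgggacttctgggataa
*Apoc2* probe: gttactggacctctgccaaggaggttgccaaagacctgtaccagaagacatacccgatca
*Apoc4* probe: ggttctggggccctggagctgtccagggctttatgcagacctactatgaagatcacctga
*Apoe* probe: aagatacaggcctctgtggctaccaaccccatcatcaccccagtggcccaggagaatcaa

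The 250 bases before the transcription start of *Apoa4*, of its cluster neighbor *Apoa1* and of *Apoc2* are shown next, from RefSeq on GRCm38.p6, since *Apoa4* and *Apoc2* had the highest ratios of the 10 genes and *Apoa1* stands next to *Apoa4* in the cluster on chromosome 9. The windows are chr9:46240594-46240843 (plus strand) for *Apoa4*, chr9:46228380-46228629 (plus strand) for *Apoa1* and chr7:19677942-19678191 (minus strand) for *Apoc2*. Capitals mark the word CAAAGTNCA, which HNF4 binds, in *Apoa4*. The *Apoa1* and *Apoc2* windows had no match and are in lower case throughout.
*Apoa4* promoter: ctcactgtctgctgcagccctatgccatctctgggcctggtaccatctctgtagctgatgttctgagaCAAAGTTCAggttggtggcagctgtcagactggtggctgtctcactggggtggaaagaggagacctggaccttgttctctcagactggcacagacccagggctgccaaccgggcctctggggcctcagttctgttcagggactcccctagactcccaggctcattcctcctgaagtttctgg
*Apoa1* promoter: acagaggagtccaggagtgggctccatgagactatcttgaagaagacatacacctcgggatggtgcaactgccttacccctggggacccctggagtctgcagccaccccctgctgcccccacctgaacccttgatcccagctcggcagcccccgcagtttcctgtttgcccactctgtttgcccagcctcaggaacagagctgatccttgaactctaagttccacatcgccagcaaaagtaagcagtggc
*Apoc2* promoter: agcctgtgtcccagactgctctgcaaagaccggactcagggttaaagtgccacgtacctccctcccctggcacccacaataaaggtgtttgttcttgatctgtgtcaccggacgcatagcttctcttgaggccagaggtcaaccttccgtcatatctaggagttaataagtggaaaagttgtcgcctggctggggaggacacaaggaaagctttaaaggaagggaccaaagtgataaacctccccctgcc

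The RefSeq windows available here held 12 starts for 8 of the 10 genes and none for *Apoc1* and *Apoc3*. In the 250 bases before each start, 4 words were searched. CAAAGTNCA, on either strand, was found in 1 of the 8 genes, *Apoa4*, 182 bases before its start, and in 392 of 32851 windows of all genes (1.19%). The C/EBP word TTGCNNAA, on either strand, was found before *Apoa2* and *Apob* (9.56% of all windows), and TATAAA, on the sense strand, before *Apoa2*, *Apoe*, *Apoa5* and *Apob* (7.59%). The direct repeat of AGGTCA with 1 base between its copies, on either strand, was found before none of them and in 11 windows of all genes (0.0335%). A match describes the letters in this window and is not evidence of binding, and no match says only that these letters are not there.

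The arrays shared 1 slide and 1 scan. Of 56600 probes with a usable spot, 27256 (48.2%) stood well above background on the control array and 29462 (52.1%) on the *Drp1*LiKO array, and the 30275 that were so on at least 1 array, covering 20165 gene names, were compared. Ratios are differences of log2 processed signal, *Drp1*LiKO minus control, after each array was scaled to its 75th percentile (313 for control and 356 for *Drp1*LiKO, 0.18 apart in log2). A Z score of 2, the criterion of change the study names, stood at a log2 ratio of 1.30 (2.46-fold), and a Z score of -2 at -1.31. *Dnm1l*, which encodes Drp1, gave a signal of 2602 on the control array and 1217 on the *Drp1*LiKO array (log2 ratio -1.28, Z -1.94). Its other, dim probe gave 22.8 and 20.9 (log2 ratio -0.31, Z -0.46), and where the deleted exons lie relative to these probes is not given in the sources used here. Hepatocyte markers were present on both arrays, with 16 of 16 compared. Markers of other liver cells differed between the arrays. Of 18 Kupffer cell and macrophage markers, *Timd4* and *Cd163* were not well above background on either array. The other 16 all had a ratio above 0, with a median of 2.34 and 12 past a Z score of 2. Their summed signal went from 12178 for control to 32322 for *Drp1*LiKO, which after scaling is a log2 ratio of 1.23. The endothelial markers had 11 of 11 above 0 (median 1.26, 5 past a Z score of 2). Of 11 stellate cell markers, *Lrat* and *Hand2* were not well above background on either array, and 8 of the other 9 were above 0 (median 1.04, 4 past it). Where the control signal was not well above background the ratio is only a lower bound. This held for 3 of the 16 macrophage, 3 of the 11 endothelial and 4 of the 9 stellate cell markers. *Des*, the stellate cell marker below 0, was such a bound, with signals of 6.47 and 18.5. In bulk RNA, fewer cells of a type and less RNA per cell cannot be told apart.

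On both arrays all 17 apolipoprotein probes stood well above background, with 1 spot each and no saturated spot, so that each ratio below is a measured one and not a bound. The noise expected of a ratio from spot to spot, taken from probes printed 10 times, was between 0.044 and 0.14 (SD, log2 scale) at the signals of these probes. This is the error of the measurement on an array and leaves out all spread between cultures or mice, which 1 array per genotype does not show. Taking the brightest probe of each gene, 5 genes had a ratio above 0 and 5 below it, while 9 of 10 lay above 0 in the normalized values the authors deposited. The median was -0.035 against -0.045 for all 20165 genes, and 44.6% of all genes were above 0. Of the 10 genes, 7 lay within 0.25 of 0, where the ratios of all genes were also most frequent. The signals of the brightest probes added up to 743974 for control and 822782 for *Drp1*LiKO, which after scaling is a log2 ratio of -0.037. None of the 10 genes passed a Z score of 2 in either direction, where 3.48% of all genes passed it as higher and 2.81% as lower in *Drp1*LiKO cells.

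**Figure D1:**
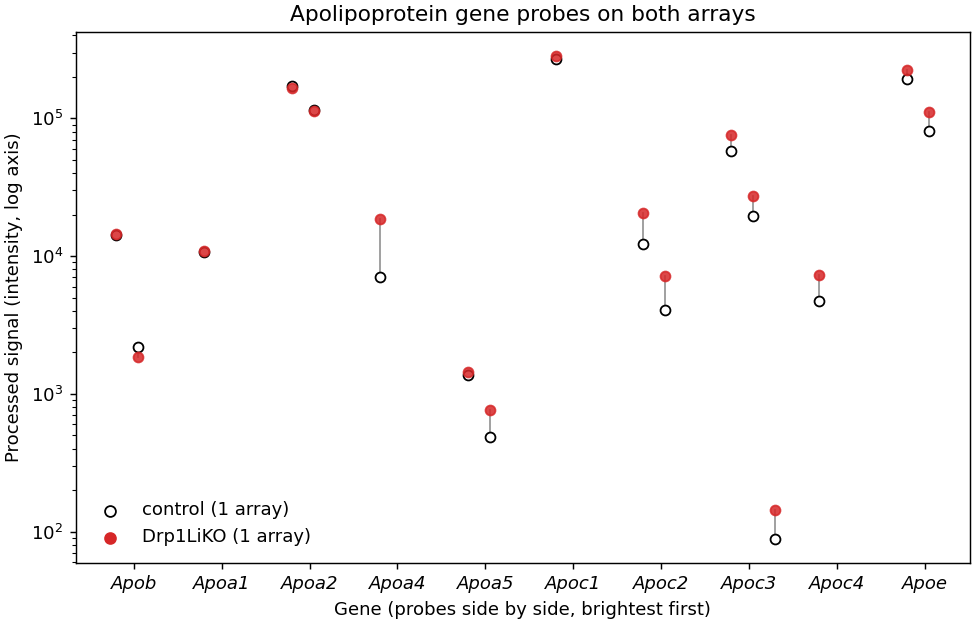
Processed signal (intensity, log axis) of the 17 probes of the 10 apolipoprotein genes on the control array (open circles) and the *Drp1*LiKO array (red circles), with a line joining the values of a probe. The circles of *Apoa4* stand widest apart, at 7092 and 18621, while those of *Apoa1*, *Apoa2*, *Apoc1* and the brightest *Apob* probe overlap.

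The genes of the structural proteins of VLDL and HDL had ratios slightly below 0 at their brightest probes, though in the deposited values *Apob* and *Apoa1* lay above 0, at 0.04 and 0.29. *Apob* (NM_009693), whose protein stays with a particle from assembly to uptake, gave a signal of 14302 on the control array and 14481 on the *Drp1*LiKO array at its brighter probe, chr12:8012697-8012756 (plus strand), a log2 ratio of -0.16. At its dimmer probe, which is spread over chr12:7992933-7994547, the signal was 2201 on the control array and 1849 on the *Drp1*LiKO array, a log2 ratio of -0.43. The *Apob* ratios were therefore both below 0, and the dimmer probe differed more, by 4.31 times its spot noise.

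*Apoa1* (NM_009692), the main protein of HDL and activator of the cholesterol-esterifying enzyme LCAT, gave a signal of 10742 on the control array and 10804 on the *Drp1*LiKO array and a log2 ratio of -0.17. *Apoa2* (NM_001305585), the other structural protein of HDL, gave a signal of 172936 on the control array and 166881 on the *Drp1*LiKO array at chr1:173156445-173156504 (plus strand), a log2 ratio of -0.23. Its other probe, at chr1:173156320-173156379, gave 114780 on the control array and 112373 on the *Drp1*LiKO array and a log2 ratio of -0.21. Both *Apoa2* probes thus lay slightly below 0 and differed from each other by less than their spot noise of 0.044 and 0.048. Of all the genes at least as bright as the dimmest apolipoprotein gene, 6931 in number, 41.6% were above 0. A ratio below 0 was therefore also the more frequent one in that set, which reaches down to signals far below those of *Apoa2*.

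*Apoa4* (NM_007468), an exchangeable apolipoprotein that HDL and triglyceride-rich particles carry, had the highest ratio of the 10 genes. Its single probe gave a signal of 7092 on the control array and 18621 on the *Drp1*LiKO array. The log2 ratio was 1.21 (2.31-fold), which is 18.8 times the spot noise of 0.064 at that signal. Its Z score was 1.86, short of 2, while it passed the 2-fold criterion, which 5.34% of all genes passed as higher and 4.62% as lower. Among genes of every signal, 797 of 20165 (3.95%) had a higher ratio than *Apoa4*. Among the 6931 genes at least as bright as the dimmest member, 82 (1.18%) had a higher ratio, and 1.82% were 2-fold or more higher. A Z score taken among probes of similar signal was 3.16 and a robust one, which takes median and median absolute deviation in place of mean and SD, was 3.43, where 3.16% and 8.52% of all genes passed 2 as higher. The value rests on 1 probe with 1 spot on each array.

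**Figure D2:**
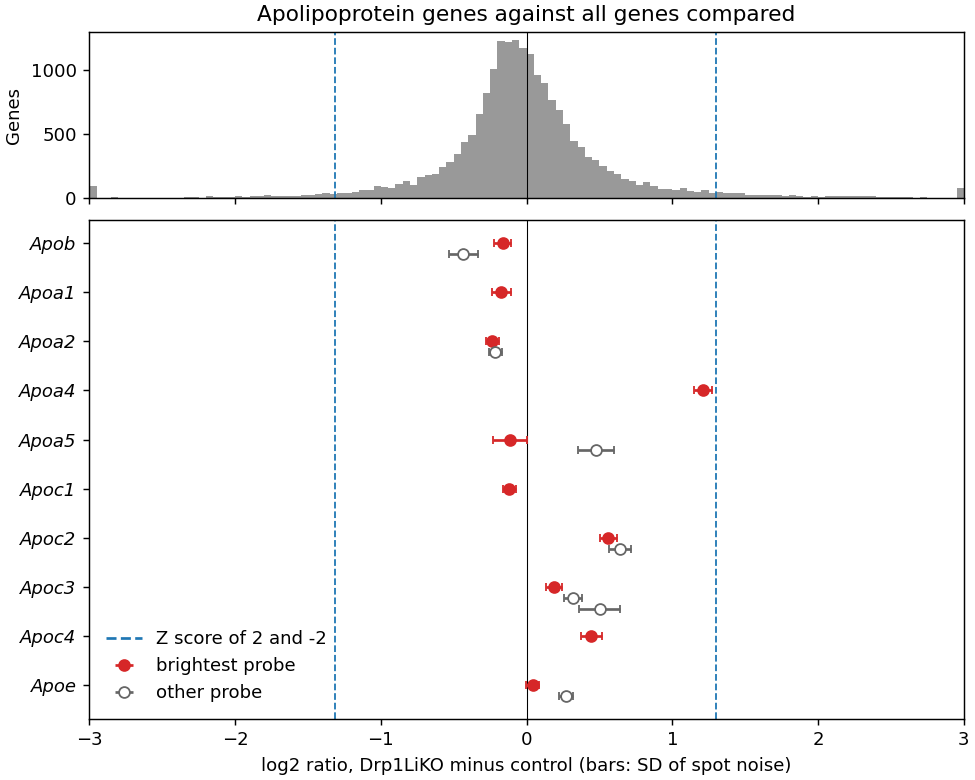
Upper panel, number of genes compared by log2 ratio (*Drp1*LiKO minus control, bins of 0.05, the outermost bins also holding the genes beyond them). Lower panel, log2 ratio of the brightest probe (red) and the other probes (open) of each apolipoprotein gene with the SD of spot noise as bars, and Z scores of 2 and -2 as dashed lines. *Apoa4*, at 1.21, lies just inside the dashed line at 1.30, and the brightest probes of the other 9 genes lie between -0.23 and 0.56.

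Of the genes whose products act on lipoprotein lipase and triglyceride removal, *Apoc2* had the highest ratios. *Apoc2* (NM_001277944), the obligate cofactor of the lipase, gave a signal of 12319 on the control array and 20637 on the *Drp1*LiKO array at chr7:20257027-20257086, a log2 ratio of 0.56 (1.48-fold). Its other probe gave 4073 on the control array and 7210 on the *Drp1*LiKO array and a log2 ratio of 0.64 (1.56-fold). The probes lie 1.57 kb apart, and their ratios were 9.26 and 8.58 times the spot noise. This was the second highest ratio among the 10 genes. Of the 6931 genes at least as bright as the dimmest member, 349 (5.04%) had a higher one.

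*Apoc3*, the inhibitor of triglyceride removal, had 3 probes with different transcript models. The brightest (NM_001289755), at chr9:46041134-46041193 (minus strand), gave a signal of 58316 on the control array and 75328 on the *Drp1*LiKO array, a log2 ratio of 0.19. The next (NM_023114), at chr9:46041353-46041412, gave 19393 on the control array and 27424 on the *Drp1*LiKO array and a log2 ratio of 0.32. The dimmest (NM_001289756), at chr9:46043606-46043665, gave 88.8 on the control array and 143 on the *Drp1*LiKO array and a log2 ratio of 0.50, with a spot noise of 0.14. All the *Apoc3* ratios were above 0, and none reached that of either *Apoc2* probe.

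*Apoa5* (NM_080434), which favors the breakdown of triglyceride at the vessel wall, was the only gene of the 10 whose probes differed in sign. The brighter probe, at chr9:46079431-46079490 (plus strand), gave a signal of 1375 on the control array and 1442 on the *Drp1*LiKO array and a log2 ratio of -0.11, within its spot noise of 0.12. The dimmer one, at chr9:46078579-46078638, gave 486 on the control array and 769 on the *Drp1*LiKO array and a log2 ratio of 0.48, or 3.84 times its noise. No direction can be given for *Apoa5* from these probes.

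*Apoc4* (NM_007385), a little-studied apolipoprotein whose gene lies next to *Apoc2*, gave a signal of 4720 on the control array and 7279 on the *Drp1*LiKO array at its only probe. The log2 ratio was 0.44 (1.36-fold), 6.13 times the spot noise. Of the 6931 genes at least as bright as the dimmest member, 521 (7.52%) had a higher one. *Apoc1* (NM_007469), a small apolipoprotein that interferes with receptor uptake, was read by 1 probe, at chr7:20274856-20274915 (minus strand), with 269613 on the control array and 282087 on the *Drp1*LiKO array. Its log2 ratio was -0.12. *Apoc4* was thus higher in *Drp1*LiKO cells by more than its spot noise, while *Apoc1* from the same cluster lay slightly below 0.

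*Apoe*, the ligand for the uptake of remnants, is made by hepatocytes and also by macrophages. Its brighter probe (NM_009696) gave a signal of 192560 on the control array and 225222 on the *Drp1*LiKO array, a log2 ratio of 0.04 and within its noise of 0.044. The dimmer probe (NM_001305843), at chr7:20281578-20281627, gave 81519 on the control array and 111704 on the *Drp1*LiKO array and a log2 ratio of 0.27. Both ratios were above 0, though of different size, and the part of the macrophage markers, at a median ratio of 2.34 beside these values, was not tested.

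Differences between the ratios of 2 genes do not depend on how the arrays are scaled by a constant, so the neighbors within each cluster were set against each other by their ratios. On chromosome 9, where the probes of *Apoa1*, *Apoc3*, *Apoa4* and *Apoa5* follow in that order within 41.5 kb of mm9, the log2 ratio of *Apoa4* exceeded that of *Apoa1* by 1.38 (spot noise 0.091, range over the other ways of processing 1.26 to 1.39). It exceeded that of *Apoc3* by 1.02 (0.89 to 1.29) and that of *Apoa5* by 1.32 (1.03 to 1.39). On chromosome 7, where *Apoc2*, *Apoc4*, *Apoc1* and *Apoe* follow within 24.7 kb, *Apoc2* exceeded *Apoc1* by 0.68 (0.49 to 0.72) and *Apoe* by 0.52 (0.32 to 0.52), and *Apoc4* exceeded *Apoc1* by 0.56 (0.40 to 0.56). *Apoc2* and *Apoc4*, whose probes are next to each other, differed by 0.12 with a noise of 0.094. The reported differences take the brightest probe of each gene. Dimmer probes of *Apoa5* (0.48), *Apoc3* (0.32 and 0.50) and *Apoe* (0.27) had higher ratios, which would make the differences from these genes smaller. These pairs were compared after the values were seen, and with 1 array per genotype none of the differences has a replicate check.

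**Figure D3:**
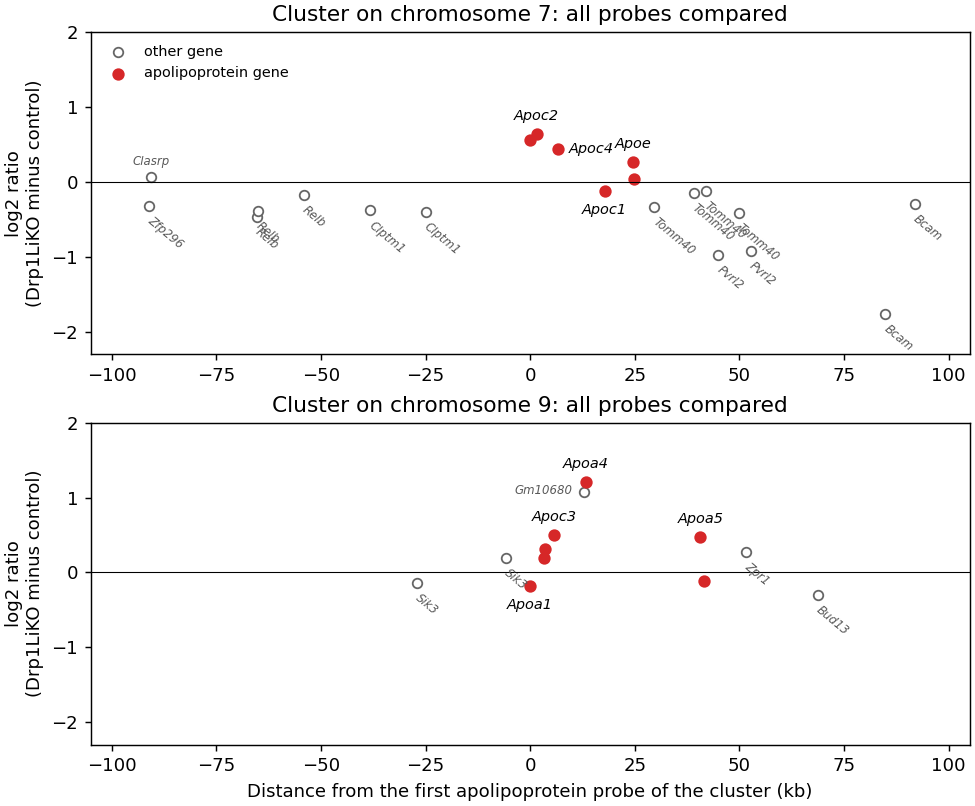
Log2 ratio (*Drp1*LiKO minus control) of every probe compared in the apolipoprotein clusters on chromosomes 7 and 9, against its distance in kb from the first apolipoprotein probe of the cluster (mm9). Red points are apolipoprotein genes and open points are other genes, each labelled. *Apoc2* and *Apoc4* form the high end of the chromosome 7 cluster at 0.44 to 0.64, and *Apoa4* at 1.21 stands beside *Gm10680* at 1.07 on chromosome 9. The *Gm10680* probe was dim, with a signal of 24.4 on the control array.

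Other genes with a probe within 100 kb of an apolipoprotein probe were described by the brightest probe of each. Of 4 compared on chromosome 9, none passed a Z score of 2. The highest was *Gm10680*, a predicted gene on the opposite strand whose probe starts 0.495 kb before that of *Apoa4*, with a signal of 24.4 on the control array and 58.3 on the *Drp1*LiKO array and a log2 ratio of 1.07. *Sik3*, a kinase gene beside *Apoa1*, had a ratio of 0.20, though another of its probes was at -0.14. *Zpr1* beside *Apoa5* had 0.27 and *Bud13* had -0.30. The 8 neighbors on chromosome 7 had a median of -0.36 with 2 above 0, and 1 of them fell past a Z score of -2, the adhesion gene *Bcam*, from 83.0 to 27.7 (log2 ratio -1.77). Another *Bcam* probe was at only -0.29, so the size of this fall differed between probes. *Tomm40*, a mitochondrial import gene next to *Apoe*, had -0.33, so that *Apoc2* and *Apoc4* lay above all 8 neighbors, the highest of which, *Cblc*, was at 0.11. *Clasrp* had 0.07, and *Pvrl2*, *Relb*, *Clptm1* and *Zfp296* lay between -0.98 and -0.32. Of 12 compared around *Apoa2* on chromosome 1, 3 rose past a Z score of 2 and the median was 0.06. These were *Nr1i3*, the nuclear receptor CAR, from 19.9 to 104 (log2 ratio 2.20), *Fcer1g*, a receptor subunit of myeloid cells, from 115 to 716 (2.46), and the protease gene *Adamts4*, from 133 to 452 (1.58). The control signals of *Nr1i3* and *Gm10680* were near 18.2, the lowest one well above background on that array, so the sizes of their ratios are uncertain. *Cfap126*, *Sdhc*, *Pcp4l1*, *Tomm40l*, *B4galt3*, *Ppox*, *Usp21* and *Ufc1* lay between -0.34 and 0.39. No other gene within 100 kb of *Apob* was compared.

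The genes around the apolipoproteins in lipoprotein metabolism were described by lists, each by counts and its median beside the -0.045 of all genes. The 10 genes of lipoprotein assembly and secretion had a median of -0.26, with 3 above 0 and none past a Z score of 2. *Mttp*, which loads lipid onto apoB, gave a signal of 2448 on the control array and 1929 on the *Drp1*LiKO array and a ratio of -0.53, though its other probe was at 0.12. *Sort1*, a sorting receptor for VLDL, was lowest at -0.98 and *Mia2*, an export factor of the endoplasmic reticulum, highest at 0.26. *A1cf*, the cofactor of *Apob* mRNA editing, had -0.95.

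Of the lipases, transfer proteins and their inhibitors, 11 of 12 were compared, with 6 above 0 and a median of 0.41. *Lpl*, lipoprotein lipase itself, rose from 126 to 535 (log2 ratio 1.91, its 5 probes between 0.57 and 1.91), and *Gpihbp1*, which holds the lipase on capillary endothelium, rose from 220 to 687 (1.46). *Angptl4*, an inhibitor of the lipase, fell from 30516 to 13878 (-1.32). *Lipc*, hepatic lipase, had 0.98, short of a Z score of 2. *Lpl* is a gene of macrophages and stellate cells and *Gpihbp1* one of endothelium, whose markers were also higher on the *Drp1*LiKO array, with medians from 1.04 to 2.34. Their part in these ratios was not tested.

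Of the receptors and their regulators, 13 of 14 were compared, with 6 above 0 and a median of -0.08. Among those measured on both arrays, *Vldlr* was highest at 0.49 and *Lsr*, a receptor for triglyceride-rich particles, lowest at -0.32. *Lrp1* had -0.18 and *Scarb1*, the HDL receptor, -0.27. *Cd36*, a fatty acid and scavenger receptor that macrophages and endothelium also make, passed a Z score of 2 with a log2 ratio of at least 2.78, its control signal of 12.9 being not well above background. Of the 4 efflux transporters, *Abcg1*, which macrophages also express, rose from 60.7 to 270 (1.97), while *Abca1*, which loads apoA-I with cholesterol, was lowest at -0.36, and the median was -0.28.

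Of 20 other genes named as apolipoproteins or related to them, 19 were on the array, 13 were compared, 11 were above 0 and the median was 0.28. *Apof*, a liver apolipoprotein that modulates cholesteryl ester transfer, rose from 929 to 3045 (log2 ratio 1.53, range over the other ways of processing 0.95 to 1.57). *Apol9a* rose from 8574 to 42486 (2.13) and *Apol9b* from 8590 to 43956 (2.17). These are near-identical copies whose probes may bind the same transcripts, so they are not separate evidence, and they are known as genes that interferon induces. *Apol11b* fell from a control signal of 93.4 to a signal not well above background, a log2 ratio of -2.82 or lower. Among the abundant plasma apolipoproteins of this list, *Apoh* had 0.31, *Apom* 0.36 and *Clu* (apoJ) -0.21, the lowest of those measured on both arrays.

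**Figure D4:**
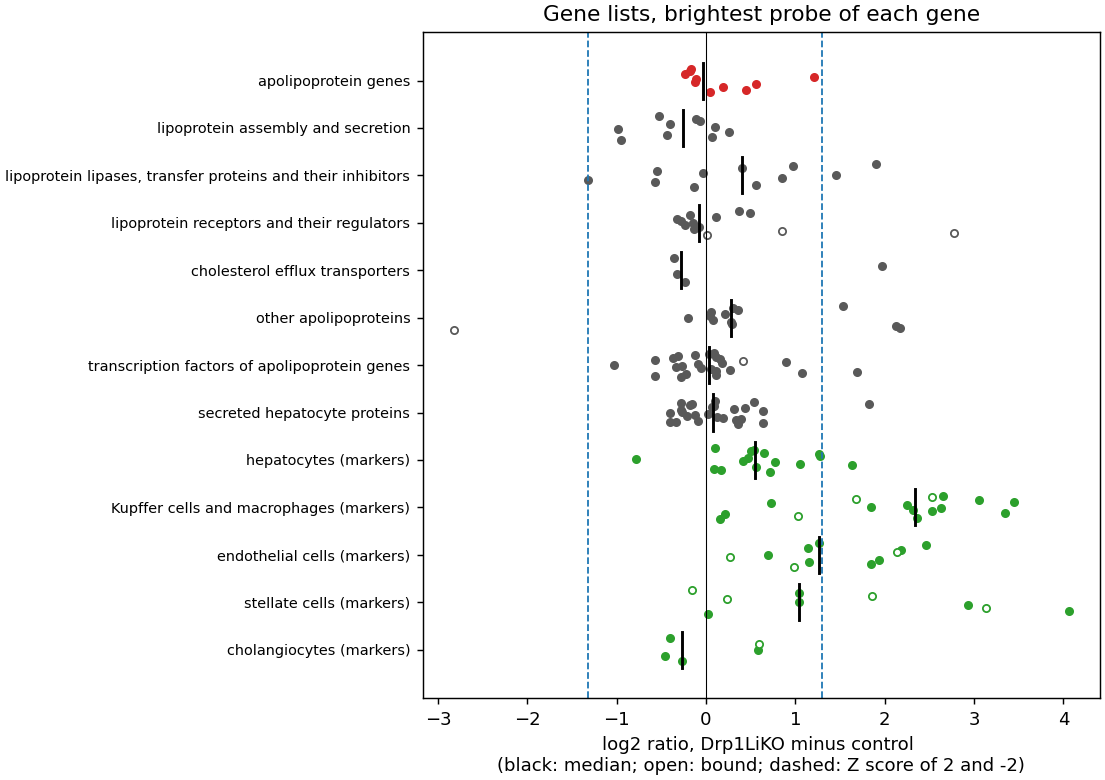
Log2 ratio (*Drp1*LiKO minus control) of each gene compared, by list, with the median as a black bar, bounds as open circles and Z scores of 2 and -2 as dashed lines. The apolipoprotein genes (red) have a median of -0.035, the lists of lipoprotein metabolism, transcription factors and secreted proteins (gray) lie between -0.28 and 0.41, and the macrophage markers among the cell type markers (green) have a median of 2.34.

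Of 26 transcription factors and coregulators known to act on apolipoprotein genes, 25 were compared, with 13 above 0 and a median of 0.03. The nuclear receptor gene *Hnf4a*, whose product binds the word found before *Apoa4*, had a ratio of 0.09. *Ppargc1a*, the coactivator PGC-1α, was the only one past a Z score of 2 and rose from 133 to 489 (log2 ratio 1.69, with 1.80 at its other probe). *Creb3l3*, the gene of the liver factor CREBH that activates *Apoa4* and *Apoc2*, gave a signal of 2333 on the control array and 5559 on the *Drp1*LiKO array, a log2 ratio of 1.07 and a Z score of 1.65. *Nr1h4*, the bile acid receptor FXR, was lowest at -1.03, though its other probe was at -0.12. These factors were listed for their known role, and whether they bear on the apolipoprotein values was not tested.

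The secreted proteins of hepatocytes were set beside the apolipoproteins as genes of similar origin and abundance. Their 26 genes had a median of 0.08, with 15 above 0, 1 past a Z score of 2 and the summed signal at a log2 ratio of -0.02. *Ahsg*, fetuin-A, rose from 12810 to 51568 (log2 ratio 1.83), while *Alb* was at 0.10 and *Hpx* lowest at -0.40. The 16 hepatocyte markers had 15 above 0 and a median of 0.55, from *Cyp2e1* at -0.78 to the urea cycle gene *Arg1* at 1.63, the only one past a Z score of 2. Their signals added up to 447089 for control and 570409 for *Drp1*LiKO, which after scaling is a log2 ratio of 0.17. The median of the apolipoprotein genes thus lay below that of the hepatocyte markers and near those of the secreted proteins and of all genes, and the gene-to-gene range of both lists included every apolipoprotein ratio.

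Each ratio was computed in 10 other ways from the same arrays. The changed filters and the missing floor could not alter these ratios, since all apolipoprotein probes stood well above background on both arrays. Keeping outlier spots hardly changed them, so the counts below hold fewer than 10 informative alternatives. *Apoa4* stayed between 1.21 and 1.55, *Apoc2* between 0.54 and 0.60, *Apoc4* between 0.43 and 0.48 and *Apoc3* between 0.19 and 0.32, all above 0 in 10 of 10. *Apoe* stayed above 0 (0.04 to 0.22) and *Apoa2* below it (-0.23 to -0.06). *Apob* ranged from -0.30 to 0.04, *Apoa1* from -0.17 to 0.29, *Apoa5* from -0.11 to 0.18 and *Apoc1* from -0.12 to 0.05, so that no direction can be given for these 4 genes. In the deposited normalized values *Apoa5* and *Apoc1* also lay above 0, at 0.15 and 0.04. The order of probes in the *Drp1*LiKO column of that table was not that of the array (rank correlation 0.958 across probes, which are no replicates).

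**Figure D5:**
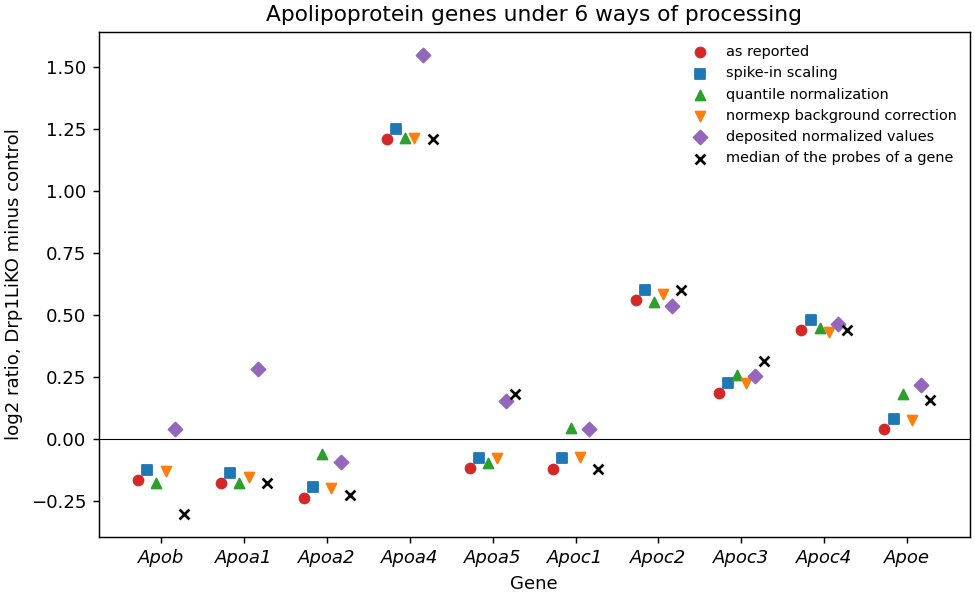
Log2 ratio (*Drp1*LiKO minus control) of each apolipoprotein gene as reported (red circles) and under 5 other ways of processing. *Apoa4*, *Apoc2*, *Apoc4*, *Apoc3* and *Apoe* lie above 0 and *Apoa2* below 0 in all those drawn, and *Apob*, *Apoa1*, *Apoa5* and *Apoc1* lie on both sides.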

How the data were processed

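RNA of 1 control and 1 *Drp1*LiKO hepatocyte culture was labeled with Cy3 and hybridized to 60-mer SurePrint G3 mouse arrays. For each array the authors deposited the Feature Extraction output, which holds the intensity of every spot, raw and after subtraction of its background (the processed signal), and no normalization between arrays. The labels give version 9.5.1.1 and the file headers 10.7.1.1. A further table of theirs holds normalized intensities, by a method not given in the sources used here. It is on a linear scale and uncentered, both columns have a median of 19.1, and 1053 probes (3.57% of those well above background) of its *Drp1*LiKO column lay over 2-fold off the array, so it served only as an alternative.

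Here control and outlier spots were left out, log2 processed signals were averaged over the spots of a probe, and each array was scaled by its 75th percentile. A probe was kept where either array had it well above background. Dimmer signals were set to the lowest one that passed on that array (18.2 for control, 15.0 for *Drp1*LiKO), which makes the ratio a bound. A gene was its brightest probe. Z scores were taken over the 30275 probes kept. Spot noise was taken from the repeated probes nearest in signal. Only *Apoc1* was brighter than all repeated probes, whose means reached 250806 and 266554.

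Coordinates were taken from the array files (mm9), without an exon annotation of that build. Names come from the array design, and 24787 of 37074 are found in RefSeq (GRCm38.p6) as symbol or synonym. Of 176 list entries 174 were on the array, 1 through a synonym. The members and lists were chosen with earlier results of these data known. Named were all members, *Dnm1l*, genes compared within 100 kb, and in each list, cell type markers aside, the genes past a Z score of 2 and the highest and lowest measured on both arrays. The values of some of these genes are not reported here. Other genes of the lists were named after their values were seen. The cholangiocyte markers, 5 of 7 compared, had a median of -0.27 with none past a Z score of 2.

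The alternatives were quantile normalization, normexp with an offset of 50, spike-in scaling, another set of probes for the percentile, the deposited values, 2 changed filters for dim probes, outlier spots kept, no floor, the median over the probes of a gene, and as criteria 2-fold, a robust Z score and a Z score within bins of similar signal. The steps were tested on simulated data made from the control array, in which 198 of 200 genes changed by a log2 ratio of 2, and 0 unchanged genes, passed the threshold among 18697. The noise added there was far smaller than the SD of 0.654 of the real ratios. The simulation therefore checks that the steps run correctly and not how the threshold behaves on these arrays. The tools were limma 3.58.1 in R 4.3.3 for normexp, and pandas 2.3.3, numpy 2.4.6, matplotlib 3.10.9 and scipy 1.17.1 in Python 3.11.15 for the rest.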

Additional observations from a re-analysis of the deposited data

How the results depend on the processing

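With 1 array per genotype the precision of every value is limited by the number of arrays, and no replicate could be left out. No paired analysis was possible because each group has 1 array. An alternative was taken to move a median when it shifted by more than 0.151, the median SD between probes of a gene on the log2 scale. The median of the apolipoprotein genes was -0.035 as reported, 0.12 after quantile normalization, 0.24 in the deposited values and 0.17 with the median of each gene's probes. The count of apolipoprotein genes past the criterion as higher was 1, *Apoa4*, with normexp, the deposited values, only probes well above background on both arrays, no filter, 2-fold, the robust Z score and the Z score among probes of similar signal, against 0 as reported, and the count of lower ones was 0 throughout. The median of assembly and secretion was -0.094 with the median of probes, that of the lipases 0.19 without a filter, and that of the other apolipoproteins 0.081 in the deposited values and 0.058 without a filter. Macrophage markers had 1.75 with normexp and 2.19 in the deposited values. Endothelial markers had 0.80 with normexp, 1.51 in the deposited values, 1.55 with probes well above background on both arrays and 1.84 without a floor. Stellate cell markers had 0.61 with normexp, 1.87 in the deposited values and 2.57 without a floor. Over all genes, the counts past the criterion were 702 higher and 567 lower as reported, 1719 and 1454 by the robust Z score, 1077 and 932 by 2-fold, and 1352 and 591 without a filter. Without a filter the median ratio of all probes was -0.47 and 69.6% of calls were higher, against 55.3% as reported and 46.3% among probes of similar signal. Counting those above, 133 of 156 alternative values of the medians and counts, and 91 of 100 of the ratios of the 10 genes, stayed within the tolerance. For the 10 genes much of this was fixed in advance. The changed filters and the missing floor cannot act on their probes, and spike-in scaling and the other percentile shift all ratios by a constant below the tolerance. The share within the tolerance is therefore no measure of robustness.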
